A study of Mus musculus with 2 samples.

Results

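Interferon-responding precursors were taken as the 104 cells with the highest interferon score among 5213 filtered cells of mouse subcutaneous adipose tissue. The score was the mean over 6 genes (Isg15, Ifit1, Ifit3, Irf7, Oasl2 and Rtp4) of the natural logarithm of 1 plus the unique molecular identifiers (UMIs) per 10000, and the members were its top 2%. Because this rule used measured transcripts, the levels of the 6 genes and every comparison of members with other cells are descriptions, and no test was made. The cells came from pups aged 12 days that had been cross-fostered to dams with milk fat of a high or a low n-6/n-3 polyunsaturated fatty acid ratio. Both groups were WT (wild-type) pups. From each group, 1 sample of flow-sorted adipocyte precursor cells was captured with 10x Genomics 3′ version 2 chemistry. The joined matrix parts the libraries by a barcode suffix that no label ties to a diet, so they are given as library 1 and library 2 and no diet comparison was made. Per the labels, 3000 sorted cells were loaded per condition, 1 protocol calling them fresh and another describing freezing and thawing. The sources do not state how many pups went into a sample.

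Interferons are secreted signals of antiviral defence. Type I interferons (alpha and beta) act through Ifnar1 and Ifnar2 and drive a complex that includes Stat2 and Irf9 and binds the interferon-stimulated response element in target promoters. Type II interferon (gamma) acts through Ifngr1 and Ifngr2 and is a strong inducer of guanylate-binding proteins, immunity-related GTPases and antigen presentation genes. Many target genes answer to both types. Adipocyte precursors are fibroblast-like cells that carry both receptors and can release chemokines.

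The matrix held 6905 barcodes, 3321 in library 1 and 3584 in library 2, with 42092816 and 43491307 UMIs. Filters for genes detected and mitochondrial share left 6885 cells. The rule then dropped every cell with a UMI of Cdh5 or Cldn5 (endothelial genes) or of C1qa or C1qb (macrophage genes), which took out 28.7% of library 1 and 20.2% of library 2. Most of the 1672 dropped cells, 1364, held exactly 1 UMI of these 4 genes, and Cldn5 was detected in 934 cells. Of 17 barcode sequences found in both libraries, 14 were among the filtered cells and none of the members carried one.

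Stretches of promoters are shown first because they carry the letters that the background names. The core of the interferon-stimulated response element (GAAA, then 2 bases of any kind, then GAAA) was searched on both strands in the 250 bases before each RefSeq transcription start (GRCm38.p6). It was found in 3.46% of the 27025 genes of the promoter table. Of the 6 rule genes 5 were matched by symbol, and the core was found in Isg15, Ifit1 and Ifit3 and not in these windows of Irf7 and Oasl2. Among guanylate-binding proteins and immunity-related GTPases, 10 of 11 matched genes held it. Among interferon effectors outside the rule 25 of 66 did, and among dissociation stress genes 0 of 15. A match describes letters and not a site of binding. Each stretch below runs 5′ to 3′ on the strand of its gene, with the core in capitals (read as TTTC, 2 bases and TTTC where the match is on the other strand).
Isg15, chr4:156200860-156200911, minus strand: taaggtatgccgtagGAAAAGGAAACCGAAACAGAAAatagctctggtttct
Ifit1, chr19:34640770-34640828, plus strand: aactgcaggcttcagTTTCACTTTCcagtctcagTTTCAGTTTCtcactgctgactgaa
Ifit3, chr19:34583392-34583431, plus strand: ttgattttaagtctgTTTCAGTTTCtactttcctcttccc
Cxcl10, chr5:92349078-92349117, minus strand: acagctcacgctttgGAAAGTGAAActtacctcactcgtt
Gbp7, chr3:142530268-142530307, plus strand: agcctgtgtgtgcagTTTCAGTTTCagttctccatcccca
Gbp3, chr3:142559984-142560029, plus strand: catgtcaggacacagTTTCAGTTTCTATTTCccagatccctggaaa
Gbp2, chr3:142620589-142620628, plus strand: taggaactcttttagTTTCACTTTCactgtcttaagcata
Igtp, chr11:58199507-58199546, plus strand: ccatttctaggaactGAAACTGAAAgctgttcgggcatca
Stat2, chr10:128270261-128270300, plus strand: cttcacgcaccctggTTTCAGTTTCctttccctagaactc
Matches run into each other in Isg15 and Gbp3, Ifit1 shows 2, and a second match of Ifit3 lies outside the stretch shown. These 9 genes were chosen because they hold the core, so they do not stand for all genes described below. Of the 27 genes outside the rule that were higher in members 22 were matched and 8 held it (36.4%). It was not found in these windows of Cxcl9, Ifi47, Ifih1, Rnf213, Xaf1, Tap1 and Psmb8, among others.

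Members were found in both libraries. In library 1, 39 of 2359 filtered cells were members, or 1.65% (95% exact binomial interval 1.18 to 2.25). In library 2, 65 of 2854 were, or 2.28% (1.76 to 2.89). The intervals overlap, and the ratio of the shares was 1.38 (0.912 to 2.105, conditional exact interval). Intervals throughout cover counting error only, since each library stands alone for its condition.

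The score had no gap at the cut. The lowest 3 members scored 0.456, 0.447 and 0.446, with 9, 4 and 9 UMIs of rule genes, and the highest 3 other cells scored 0.444, 0.443 and 0.440, with 6, 5 and 5. Of all other cells 30.3% had a score above 0, mostly from 1 rule gene (1157 cells), while 81 had 3 or more. Members carried from 2 to 158 UMIs of rule genes with a median of 9, and 22 of them had UMIs of 5 or 6 of the genes. The 3 highest scores, 1.94, 1.40 and 1.26, all belonged to library 2. A single cell of that library held 158 of the 1300 rule gene UMIs of all members (12.2%).

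**Figure D1:**
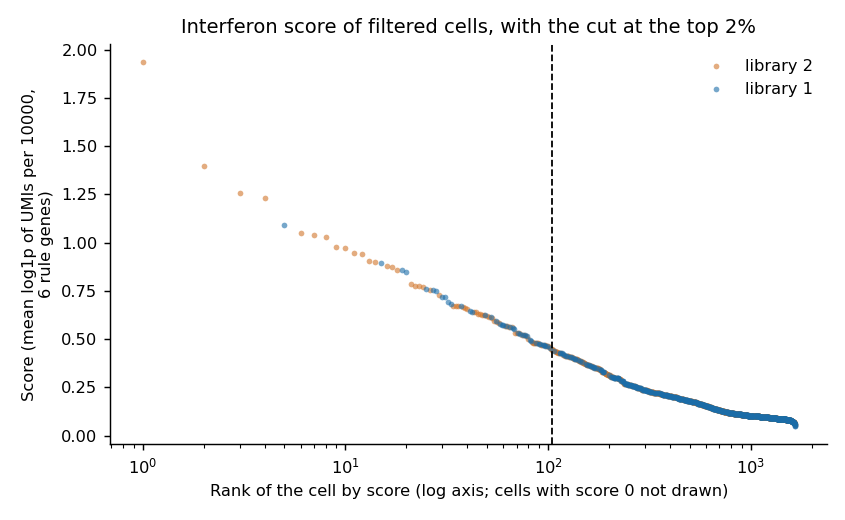
Score of each filtered cell with a score above 0 (vertical axis, mean of log1p of UMIs per 10000 over 6 genes) against its rank (log axis), coloured by library, with a dashed line after rank 104. The scores fall without a step at the line, from 1.94 at rank 1 to 0.446 at rank 104.

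The members carried the transcripts of fibroblast-like precursors. Every member had UMIs of the collagen genes Col1a1 (lowest 18, median 179), Col1a2 and Col3a1 and of decorin (Dcn). Pdgfra, the receptor often used to gate adipocyte precursors, had a UMI in 80.8% of members and 74.3% of other cells. The median depth was 12147.5 UMIs and 2803 genes in members and 12208 UMIs and 2896 genes in other cells. The 5th percentile of UMIs over both libraries was 7530 in members and 4739 in other cells. Shallow cells were rarer among the members of library 2 (8697 beside 5182 UMIs) and not among those of library 1 (3402 beside 4279 UMIs). The 95th percentile of UMIs in other cells, 17895, was passed by 4 members (3.85%), and no doublet caller was run. Cells with at least 2 UMIs of the proliferation genes Mki67 or Top2a made up 2.88% of members and 2.76% of other cells.

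Markers of other cell types were measured in the same cells. Of 7 plasmacytoid dendritic cell markers (cells known for releasing type I interferon) Siglech, Ccr9, Ly6d and Klk1 had 0 UMIs, and the summed level of that list (356 CPM in members and 167 CPM in other cells of library 1, 238 and 181 CPM in library 2) rested on Bst2 and Tcf4 apart from 1 UMI. All 6 epithelial markers were at 0, and 9 lymphocyte markers had 4 UMIs in all members together. The 12 macrophage or monocyte markers summed to 107 counts per 1000000 counts (CPM) in members and 55.9 CPM in other cells of library 1, and to 38.8 and 41.8 CPM in library 2. Adgre1 and Fcgr1 of that list were at 0. Of 10 endothelial markers Egfl7 and Tie1 were at 0, and the list summed to 527 CPM in members and 485 CPM in other cells of library 1 and to 569 and 421 CPM in library 2, most of it from Fabp4 (415 and 305 CPM over both libraries). In library 1, 1 member of 3243 UMIs held 9 of the 15 Tyrobp UMIs of all members, 7 of Fcer1g and only 18 of Col1a1. Without it 33 genes were still at least 2-fold higher in members in both libraries, all of them the same as with it. The haemoglobin gene Hbb-bs, which precursors are not known to express, had a UMI in 48.1% of members and 51.1% of other cells. The erythroid list summed to 883 CPM in members and 3761 CPM in other cells of library 1 and to 22.5 and 20.6 CPM in library 2. Of the filtered cells 11 had over 1% haemoglobin UMIs, and 0 of them were members. Without these cells the members were the same 104 and the same 33 genes were higher. The part of haemoglobin transcripts in the remaining cells was not tested.

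The 6 rule genes give the size of the selected signal. Isg15, a ubiquitin-like modifier of antiviral defence, stood at 275.5 CPM (95% Poisson interval 230 to 328) in members of library 1 and at 404.5 CPM (362 to 451) in those of library 2, beside 7.42 and 8.92 CPM in other cells. Ifit1, which binds foreign RNA caps, stood at 203 CPM (164 to 249) and 437 CPM (392.4 to 485.4), beside 4.43 and 4.87 CPM. A few cells carried much of both genes: 3 cells held 37.8% of the members' Ifit1 UMIs, 1 of them 95 UMIs, and 3 cells held 20.5% of their Isg15 UMIs. The 2 libraries are not compared on these levels. Ifit3, a partner of Ifit1, was at 56.9 and 67.6 CPM in members and 3.76 and 4.14 CPM in other cells. Oasl2, a relative of the oligoadenylate synthetases, was at 89.7 and 96.4 CPM beside 6.43 and 6.41 CPM. Rtp4, an antiviral transmembrane protein, was at 89.7 and 125 CPM beside 8.79 and 10.5 CPM. Irf7, the factor that amplifies type I interferon production, was at 56.9 and 55.1 CPM beside 7.88 and 6.98 CPM.

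Each gene was also higher in cells chosen without it. The top 2% was taken again from the other 5 genes, and the left-out gene was measured in those cells and in the rest. Ifit1 was then 37.5-fold higher (95% interval 32.3 to 43.5), at 250.5 beside 6.68 CPM, and 80 of the 104 cells were also members. Isg15 was 23.9-fold higher (20.8 to 27.4) and Ifit3 10.3-fold (7.56 to 13.7). Oasl2 followed at 8.95-fold (6.96 to 11.4), Rtp4 at 8.38-fold (6.76 to 10.3) and Irf7 at 5.12-fold (3.74 to 6.88). Each ratio was above 1 in both libraries, the lowest being Irf7 in library 1 at 3.91 (2.10 to 6.69). Library 1 gave a ratio of 17.0 for Ifit1 (11.9 to 23.8) and library 2 a ratio of 45.2 (37.9 to 54.1). These intervals do not cover the gathering of Ifit1 UMIs in few cells, so the 2 ratios are not compared.

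Few genes passed the thresholds below in both libraries. Nearly all of them were in gene lists chosen with earlier results of these data known, so that overlap is a description. Genes counted as higher or lower when their level was at least 20 CPM in members or other cells of each library and at least 2-fold apart in the same direction in both libraries, with 5 CPM added to each side of a fold. Of 4593 genes at that level 33 were higher (0.718%) and 0 were lower (0%). The 33 were the 6 rule genes, 26 genes of the listed interferon, antigen presentation and chemokine groups, and the unnamed gene model Gm16685. With 1.5-fold in place of 2-fold, 58 genes were higher (1.26%) and 14 lower (0.305%). Where cells with UMIs of Cdh5, Cldn5, C1qa or C1qb were kept, 137 members were taken and 55 genes were higher, 32 of them among the 33. Of the 33, 27 reached the level only through the members, so their number is no measure of the group. Of 4428 genes at 20 CPM in the other cells of both libraries 6 were higher (0.136%).

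**Figure D2:**
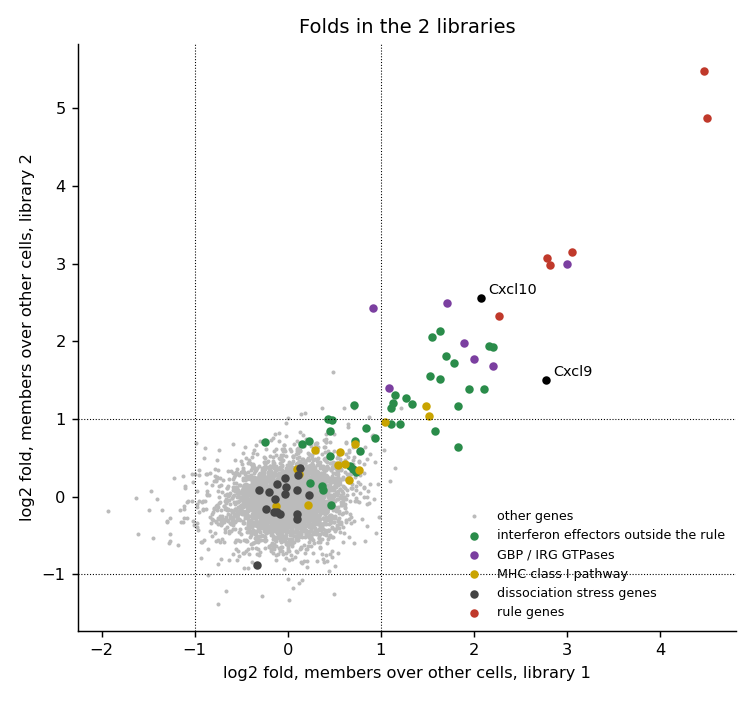
Log2 fold of members over other cells in library 1 (horizontal axis) and library 2 (vertical axis) for the 4593 genes at level, with 5 CPM added to each side; dotted lines mark 2-fold and colours mark gene groups. Genes past 2-fold in both libraries lie at the upper right, no gene lies past it at the lower left, and dissociation stress genes lie near 0.

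Of 81 listed interferon effectors outside the rule 39 were at level and 16 counted as higher, with 0 lower, beside 0.718% of all genes. Of the 16, 14 reached the level only through the members, and of the 19 at level in other cells 2 were higher (10.5%). The median log2 fold was 1.01 over 55 members of the list with at least 10 CPM, beside -0.02 over 6967 genes of that level. It was 0.72 over the 35 that had that level in other cells alone, and 0.70 over all 81. Of the 55, 50 were higher in both libraries by any amount and 0 were lower in both.

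The 16 included Ifih1, Zbp1, Eif2ak2, Rnf213 and Trim25. Ifih1, a cytosolic sensor of double-stranded RNA also called MDA5, stood at 32.8 and 47.6 CPM in members of libraries 1 and 2, beside 7.21 and 7.01 CPM in other cells. Zbp1, a sensor of Z-form nucleic acid, stood at 39.4 and 27.6 CPM beside 5.31 and 7.47 CPM. Eif2ak2 (PKR), the kinase that halts translation on double-stranded RNA, stood at 32.8 and 33.8 CPM beside 10.7 and 11.1 CPM. These 3 genes were above the other cells in both libraries. Rnf213, a large ubiquitin ligase, was at 65.6 and 51.4 CPM beside 10.3 and 9.85 CPM. Trim25, the ubiquitin ligase that acts on the RNA sensor RIG-I, was at 26.2 and 30.1 CPM beside 9.04 and 9.16 CPM. Ddx58, which encodes RIG-I and is a sensor outside that list, was at 26.2 and 13.8 CPM beside 7.63 and 6.44 CPM and fell short of the level in library 2.

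The remaining genes of the 16 included nuclear and metabolic effectors. Cmpk2, a nucleotide kinase, was at 21.9 and 25.1 CPM beside 4.29 and 5.23 CPM. Parp14 and Dtx3l, of the ADP-ribosylation machinery, had log2 folds of 1.77 and 1.45, and Xaf1, a promoter of apoptosis, 1.78. The nuclear body genes Sp100 and Sp110 had 1.56 and 1.26, and Phf11d had 2.03. Ifi203 stood at 448 and 356 CPM beside 113 and 132 CPM, and Mndal at 153 and 182 CPM beside 67.1 and 76.1 CPM. Both are DNA-binding proteins of the p200 family, whose close copies on chromosome 1 overlap in the annotation, so the split of reads between them is uncertain.

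Other effectors did not pass the rule. Ifitm3, which blocks viral entry and was found in every member, stood at 1754 CPM (1634 to 1879) and 1932 CPM (1837 to 2031) beside 978 and 1041 CPM. That is a log2 fold of 0.88. Bst2 (tetherin), which holds virus particles at the cell surface, stood at 262 and 131 CPM beside 70.6 and 82.4 CPM and passed 2-fold in library 1 and not in library 2. Ly6a (Sca-1), a progenitor surface marker on the same list, differed by 0.19. A few targets had few UMIs. Rsad2 (viperin) stood at 15.3 and 17.5 CPM beside 0.598 and 0.423 CPM, carried by 11 members. Mx1 had 3 UMIs in the members and Ifi44 had 1, and Oas3 had 0, an upper limit of 3 UMIs.

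Of the signalling chain of the response, 6 of 10 listed factors were at level and 1 counted as higher, beside 0.718% of all genes. That factor, Stat2, reached the level only through the members, and of the 3 at level in other cells 0 were higher. The median log2 fold was 0.61 over 8. Stat2 stood at 28.4 and 32.6 CPM in members beside 10.5 and 12.0 CPM in other cells. Irf9 was at 21.9 and 30.1 CPM beside 14.6 and 14.4 CPM, a log2 fold of 0.72. Usp18, which removes Isg15 from proteins and shuts off type I receptor signalling, stood at 21.9 and 30.1 CPM beside 4.15 and 3.45 CPM. Of 12 listed negative regulators 7 were at level and only Usp18 counted as higher, beside 0.718% of all genes. It reached the level only through the members, and of the 5 at level in other cells 0 were higher. Socs1, the inhibitor of Janus kinases, had a log2 fold of 0.46 and Socs3 of 0.27.

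Of 9 receptor and kinase genes 0 counted as higher or lower, and the median over the 7 at level was 0.03. Ifnar1 stood at 28.4 and 18.8 CPM beside 24.9 and 25.2 CPM, with a ratio over both libraries of 0.889 (0.588 to 1.29). Ifnar2 had a ratio of 1.11 (0.904 to 1.353), Ifngr1 of 1.23 (0.951 to 1.57) and Jak1 of 1.02 (0.895 to 1.17). Irf1, a factor induced by gamma interferon and other cues, was at 293 and 215 CPM beside 262 and 226 CPM, a ratio of 1.003 (0.892 to 1.12). None of 21 interferon ligand genes reached the level, and the members held 1 UMI in all, of Ifng. The other 20 were at 0 in members, and Ifnb1 was at 0 in other cells too. With 3 counts as the floor, transcripts of a ligand in members were not detectable at this depth.

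**Figure D3:**
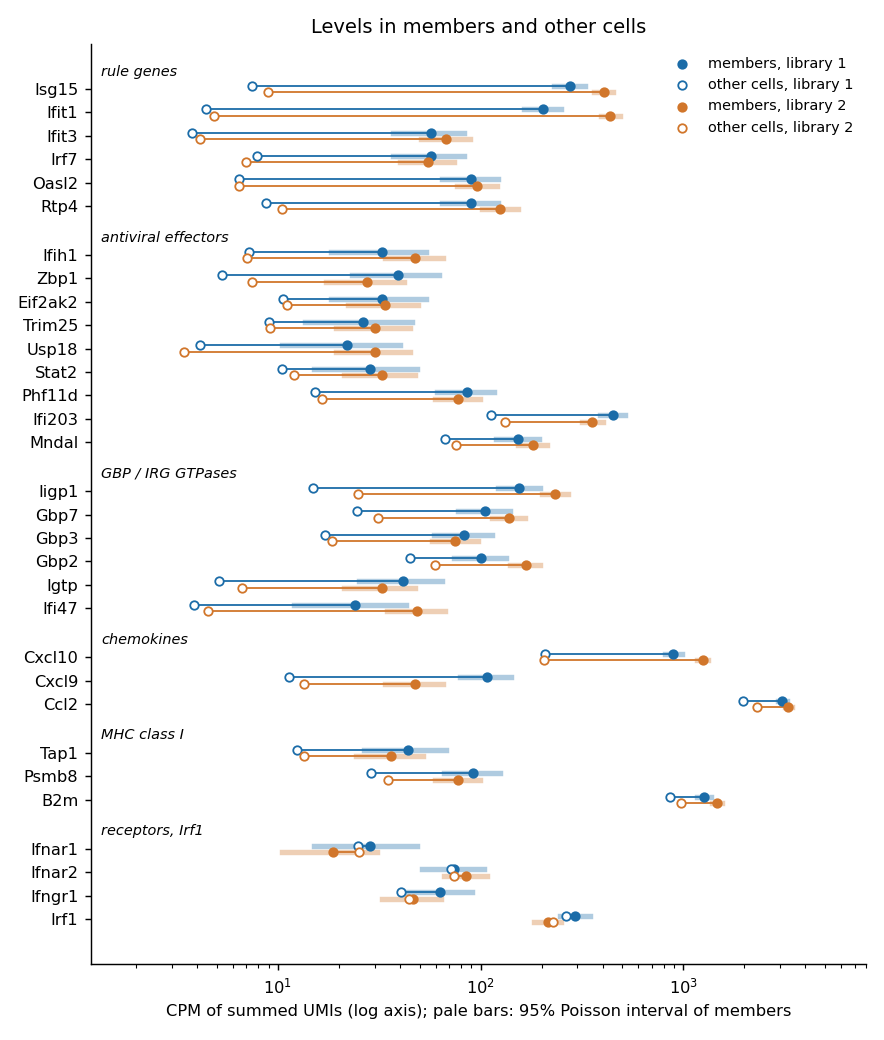
Levels in CPM (log axis) of named genes in members (filled) and other cells (open) for each library, with pale bars for the 95% Poisson interval of the members. The rule genes and the effectors, GTPases and Cxcl10 drawn are apart in both libraries, whereas Ifnar1, Ifnar2 and Irf1 lie close together in members and other cells. Rule genes set the score, and the effectors, GTPases and Cxcl10 drawn all counted as higher, so their distance follows from that choice.

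Guanylate-binding proteins and immunity-related GTPases, which attack the vacuoles of intracellular pathogens, had the highest median among the gene lists that the rule did not use. Of 18 genes in the files 7 were at level and 6 counted as higher, with 0 lower, beside 0.718% of all genes. Of the 6, 4 reached the level only through the members, and both genes at level in other cells were higher. The median log2 fold over the 10 with at least 10 CPM was 1.88, and over the 5 that had it in other cells alone 1.86. Iigp1 stood at 155 CPM (121 to 196) and 233 CPM (201 to 269) in members, beside 14.98 and 24.8 CPM, and 60 of 104 members had a UMI. Thinned to 6900 UMIs per cell, 48% of members and 7.82% of other cells had an Iigp1 UMI, and without thinning 57.7% and 12.2%. Gbp7 was at 105 and 138 CPM beside 24.7 and 31.3 CPM. Gbp3 was at 83.1 and 75.1 CPM beside 17.0 and 18.5 CPM, and Gbp2 at 101 and 167 CPM beside 44.7 and 59.8 CPM. These 3 Gbp genes lie on chromosome 3, between 142530342 and 142638008 in the mm10 build (GENCODE annotation). Of the GTPase family Igtp had a log2 fold of 1.90 and Ifi47 of 2.28. Irgm1 stood at 21.9 and 76.4 CPM beside 9.28 and 10.1 CPM, past 2-fold in library 2 alone. These families hold near-identical copies, so reads may be split between them.

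Of 27 listed chemokines and inflammatory cytokines 13 were at level and 2 counted as higher, beside 0.718% of all genes. Both are attractants of activated T cells, and 1 of them reached the level only through the members. Of the 12 at level in other cells 1 was higher. The median log2 fold over 16 genes was 0.55, beside -0.02 over all genes with at least 10 CPM. By any amount, 11 of the 16 were higher in both libraries and 0 were lower in both. Cxcl10 stood at 892 CPM (808 to 983) in members of library 1 and at 1244 CPM (1167 to 1323) in those of library 2, beside 208 and 206 CPM in other cells. Its transcripts were found in 82 members (78.8%) and in 60.8% of other cells. Cxcl9, induced chiefly by gamma interferon, stood at 107 and 47.6 CPM beside 11.4 and 13.5 CPM. Only 15 members held a Cxcl9 UMI and 3 of them held 70.1% of these UMIs, with up to 23 in 1 cell. Ccl5 was carried by 2 members, 1 of which held 18 UMIs. Ccl2 and Ccl7, which attract monocytes, had log2 folds of 0.58 and 0.62 and did not pass the rule. Il6 stood at 278 and 503 CPM beside 316 and 302 CPM, lower in library 1 and higher in library 2.

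Antigen presentation on MHC class I was higher by modest amounts. Of 23 listed genes 14 were at level and 2 counted as higher, beside 0.718% of all genes. Of the 2, 1 reached the level only through the members, and of the 12 at level in other cells 1 was higher. The median log2 fold over 18 genes was 0.52, beside -0.02 over all genes with at least 10 CPM. By any amount, 16 of the 18 were higher in both libraries and 1 was lower. Psmb8, a subunit of the immunoproteasome, stood at 91.8 and 77.6 CPM beside 28.8 and 35.1 CPM. Tap1, the peptide transporter, stood at 43.7 and 36.3 CPM beside 12.5 and 13.4 CPM. B2m, the light chain of all class I molecules, stood at 1264 CPM (1163 to 1371) and 1462 CPM (1379 to 1548) beside 857 and 978 CPM, a log2 fold of 0.59. H2-K1 and H2-D1 had 0.47 and 0.53. MHC class II genes summed to 11.2 CPM in members and 24.1 CPM in other cells, and their activator Ciita had 0 UMIs in members.

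The dissociation stress, unfolded protein and DNA damage, and fatty acid oxidation lists lay near the median of all genes. Dissociation stress genes, which answer to tissue digestion, had a median of -0.07 with 0 of 18 genes at level counted as higher or lower. Unfolded protein and DNA damage genes had -0.11, and fatty acid oxidation genes -0.01. NF-kB targets had 0.22 (0.07 in library 1 and 0.19 in library 2). Adipogenic regulators had 0.16 (-0.02 in library 1 and 0.23 in library 2). Outside all lists, 7 named genes with at least 50 CPM in members or other cells of both libraries joined were at least 1.5-fold higher in both libraries. Cp, the ferroxidase ceruloplasmin, stood at 98.4 and 159 CPM beside 58.0 and 69.2 CPM, and AW112010 at 34.98 and 68.9 CPM beside 21.3 and 28.4 CPM. Tfpi2, a protease inhibitor, Zc3h12a, an RNase that degrades inflammatory messages, Sdc4, a cell surface proteoglycan, Fam111a, a protease that restricts viruses, and Osmr, a receptor for oncostatin M, followed. Their log2 folds ran from 0.86 for Tfpi2 to 0.63 for Osmr. Only Smpd3, a sphingomyelinase, and Trio, an exchange factor for small GTPases, were named as lower, at -0.67 and -0.66.

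Next, cells were followed down the score. In the top 2%, the next 3%, the next 5%, the other cells with a score above 0 and the cells with score 0, the GTPase list summed to 785, 531, 312, 174 and 133 CPM. Cxcl10 stood at 1116, 619, 349, 211 and 177 CPM over the same bands. Listed effectors went from 10035 CPM in members to 6237 CPM at score 0, and MHC class I from 3946 to 2881 CPM. Each of these steps had the same direction in library 2, and in library 1 as well. Dissociation stress genes, at 11719 CPM in members and 11532 CPM at score 0, followed no such order. The next 3% of cells, which are not members, thus held intermediate levels. Within the members, the 26 cells with the highest scores had 2054 CPM of rule genes and 958 CPM of the GTPase list. The 26 with the lowest scores had 527 CPM of rule genes but 873 CPM of the GTPase list, so the GTPases did not follow the score among the members.

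**Figure D4:**
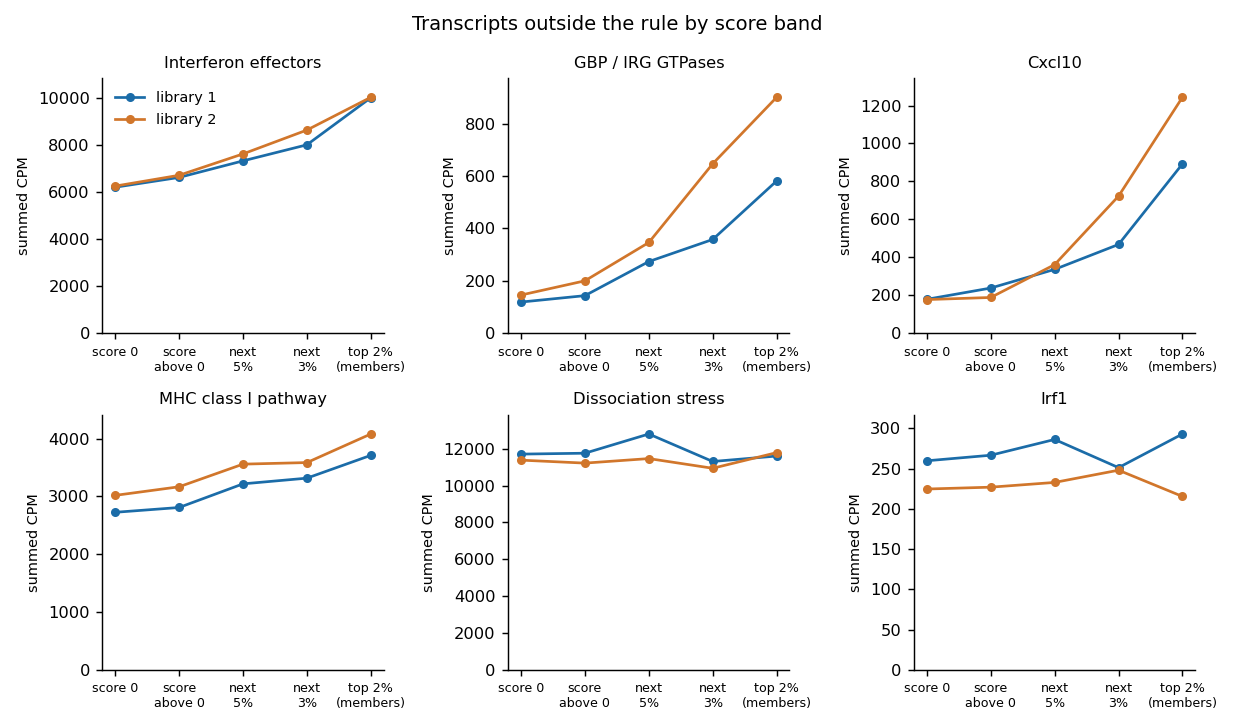
Summed CPM of genes outside the rule (vertical axes, from 0) in 5 bands of cells ordered by score, for each library. The effector, GTPase, Cxcl10 and MHC class I panels climb from score 0 to the members, whereas the dissociation stress and Irf1 panels do not.

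The rule genes and the GTPases picked partly different cells. After these values were seen, all filtered cells were ranked by the mean of the same quantity over the 10 measured GTPase genes. Only 5 of these had 10 CPM in other cells, so the members' own levels helped to choose the genes, and the overlap is a description. Of the 104 cells in its top 2% 35 were members (33.7% of either set of cells), and 65 members (62.5%) and 456 other cells (8.93%) lay in its top 10%. The 35 cells in both sets had Cxcl10 at 2430 CPM, Isg15 at 497 CPM and Zbp1 at 9.51 CPM. The 69 members outside the GTPase set had Cxcl10 at 454 CPM, Isg15 at 287 CPM and Zbp1 at 43.1 CPM. The 69 cells chosen by GTPases alone had Cxcl10 at 739 CPM and Isg15 at 33.5 CPM, and Zbp1 at 9.92 CPM. Zbp1 was thus lower in the members within the GTPase set than in those outside it, but its level within the set rests on few UMIs. Other effectors differed less, with Ifih1 at 38.1 CPM within the set and 44.3 CPM outside it, and Usp18 at 21.4 and 29.9 CPM. The 5040 cells in neither set had Cxcl10 at 200 CPM, Isg15 at 7.89 CPM and Zbp1 at 6.42 CPM. These cells and the 69 of the GTPase set outside the members were bounded by the rule score as well. Their Isg15 levels are therefore a description and no separate support. The GTPase set held 25 cells of library 1 (1.06%) and 79 of library 2 (2.77%).

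Members of library 2 lay more often than its other cells on the committed side of the precursor range. For each cell the summed UMIs of 12 markers of Dpp4-type progenitors (the early interstitial cells) and of 12 markers of committed preadipocytes were divided by their means, and the larger value set the side. This is a split of a range and not a cell type, and 7.83% of other cells and 8.65% of members lay near the cut. The committed markers include Icam1, which is also on the list of chemokines and inflammatory cytokines. Icam1 stood at 321 CPM in members within the GTPase set and at 224 CPM in those outside it. In cells in neither set it was at 199 CPM, and its part in the split was not tested. The committed side held 63.5% of members (53.4 to 72.7) and 44.5% of other cells (43.2 to 45.9). In library 2 these shares were 70.8% (58.2 to 81.4) and 44.1%. In library 1 they were 51.3% (34.8 to 67.6) and 45.1%, with overlapping intervals. The bands just below the members had like shares, at 64.1% in the next 3% and 60.2% in the next 5%, and cells with score 0 had 42.4%. Of single markers, Pi16 stood at 1268 and 1072 CPM in members beside 1568 and 1579 CPM, and Wnt2 at 83.1 and 97.7 CPM beside 137 and 149 CPM. Col4a1 stood at 295 and 332 CPM beside 254 and 234 CPM. Of the 12 Dpp4-type markers 11 were lower in both libraries by any amount and 1 was higher. Of the 12 committed markers 7 were higher in both and 0 were lower in both. Median log2 folds in libraries 1 and 2 were -0.35 and -0.41 for the Dpp4-type list and 0.08 and 0.42 for the committed list. Over all genes with at least 10 CPM these medians were -0.01 and -0.04. None of the 12 markers of either list passed 2-fold in both libraries.

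**Figure D5:**
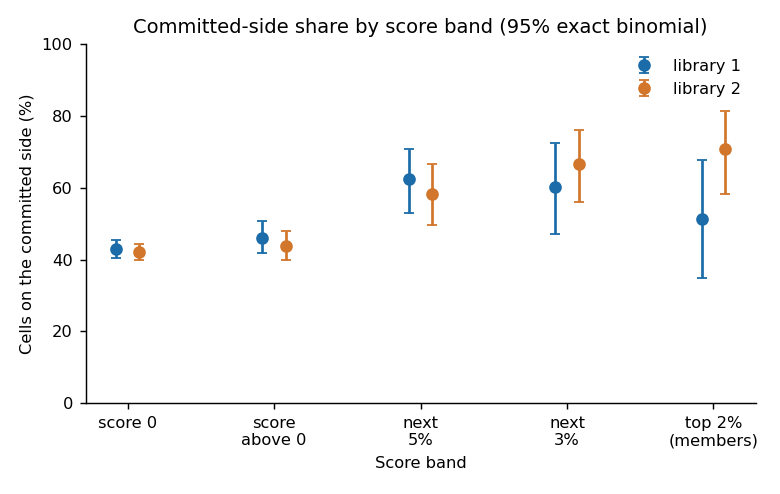
Share of cells on the committed side (vertical axis, percent, with 95% exact binomial intervals) in 5 bands of cells ordered by score, for each library. In library 2 the members reach 70.8%, against 42.0% of cells with score 0, whereas in library 1 the interval of the members spans 34.8 to 67.6.

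The interferon pattern was seen on either side of that split. The committed side held 66 members among 2341 cells (2.82%, 2.19 to 3.57) and the Dpp4 side 38 among 2872 (1.32%, 0.938 to 1.81). Within the committed side the GTPase list summed to 920 CPM in members and 220 CPM in other cells, and within the Dpp4 side to 510 and 118 CPM. Median log2 folds of that list were 1.86 and 1.80. The effector list had medians of 0.81 and 1.13 on these sides. Cxcl10 stood at 1456 beside 239 CPM on the committed side and at 572 beside 185 CPM on the Dpp4 side. Other cells of the committed side also had more rule gene transcripts than those of the Dpp4 side, at 52.0 and 32.2 CPM. When the other cells were reweighted to the make-up of the members by side and library, 31 genes were higher, all among the 33.

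Transcripts that mark sex were mixed among the members. Cells with at least 4 Xist UMIs and no UMI of 4 Y-linked genes made up 43.6% of members and 41.5% of other cells in library 1, and 50.8% and 40.5% in library 2. Cells with a Y-linked UMI and at most 1 of Xist made up 30.8% and 24.4% in library 1, and 27.7% and 30.1% in library 2. The interval of the members held the value of the other cells in each of these comparisons, and members came from both kinds of cell in both libraries.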

How the data were processed

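Values in the authors' matrix are UMI counts, whole numbers with no scaling applied. Tools named in the submitters' processing notes are Seurat 3.0.1 and Cell Ranger without a version, and the build named is mm10; their roles are not stated. Rows with the same symbol were summed. Cells were kept with at least 500 genes, at most 10% mitochondrial UMIs and no UMI of Cdh5, Cldn5, C1qa or C1qb. Counts were summed over members and over other cells per library and divided by their total (CPM). With 1 library per condition, and members chosen on these transcripts, no p-value was computed. Intervals are exact Poisson, Clopper-Pearson or conditional binomial at 95%.

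The members and lists were chosen with earlier results of these data known. Of listed symbols, 8 were not found, Mx2 and Cxcl11 among them. Named genes were the rule genes, fixed signalling and effector genes (1 of them is not reported here), list genes that passed the rule, and up to 15 genes a direction outside the lists with at least 50 CPM, at 1.5-fold where fewer than 5 passed 2-fold. Other list members, among them Ddx58, Rsad2, Mx1, Irgm1, Ccl2, Il6 and Pi16, were named after their values were seen. Coordinates are from GENCODE M21, which is on GRCm38, and promoters from RefSeq. Thinning to 6900 UMIs left out 4 members and 518 other cells. TMM factors came from edgeR 4.0.16, used for scaling only. On simulated counts, 100 of 100 genes set 4-fold higher and 87 of 100 set 4-fold lower were recovered, with 0 of 4349 unchanged genes called. The genes set to change had at least 20 CPM in other cells of both libraries, which 27 of the 33 higher genes did not. Counts were drawn as Poisson, without the choice of members by score or the gathering of UMIs in few cells. The simulation thus gives no error rate for the genes described here.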

Additional observations from a re-analysis of the deposited data

Results flagged for a closer look

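Among the 1672 cells that were left out for a UMI of Cdh5, Cldn5, C1qa or C1qb, 33 had an interferon score at or above that of the lowest member. This is a signal in cells that the comparisons did not use, and it stands above the limit of 3 cells (0.179%). The share was 1.97% (1.36 to 2.76), beside the 1.995% of members among the filtered cells, at 17 of 948 in library 1 and 16 of 724 in library 2. Of the 33 cells, 23 held exactly 1 UMI of the 4 genes, 7 held a UMI of the endothelial gene Pecam1 and 1 held a UMI of the leukocyte gene Ptprc.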

How the results depend on the processing

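The ratio of member shares, library 2 over library 1, stayed within its own interval under all 11 alternatives (1.002 to 1.95), the lowest being the choice of 2% within each library, which sets it to about 1 by construction. The count of 33 higher genes was 18 with a level minimum of 50 CPM, 55 without the exclusion of cells by 4 genes, 67 in library 1 alone and 58 in library 2 alone, and between 23 and 42 otherwise. The count of 0 lower genes was 8 at the top 1% of cells, 1 with 2% taken within each library, 5 after thinning, 5 with no level minimum, 39 in library 1 alone and 12 in library 2 alone, and 0 under the other 11. The effector median of 1.01 was 0.77 at the top 5%, 0.87 at 50 CPM and 0.70 with no level minimum, and lay between 0.88 and 1.12 under the other 14. The rule without Isg15 shared 77 of 104 cells with the members. Leaving out the 3 members with the most rule gene UMIs gave 32 higher genes, and leaving out cells under 5000 UMIs gave 33, of which 29 were among the 33 with them. These 2 settings, and leaving out the member with Tyrobp or cells with over 1% haemoglobin UMIs, were added after the data were seen. The cause of these shifts was not tested. No paired analysis was possible because each condition has 1 sample and the result comes from no test. Levels under about 20 CPM rest on few UMIs in 104 cells.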
